A study of Mus musculus with 10 samples.

Results

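The border-associated macrophage genes described here are 10 genes that mark the macrophages at the edges of the brain: the mannose receptor Mrc1, the hyaluronan receptor Lyve1, the chemokine Pf4, the coagulation factor subunit F13a1, the carbonyl reductase Cbr2, the membrane protein Ms4a7, the scavenger receptor Stab1, the sialic acid-binding lectin Siglec1, the folate receptor Folr2 and the lysozyme Lyz2. They were taken by gene symbol from the 24391 gene names in the tables, and all 10 had enough counts to be tested. The tables hold hippocampal RNA-seq from 10 male C57BL/6J mice aged 10 to 14 weeks, collected on day 4. In SAH mice (n = 4), a filament pierced an artery of the circle of Willis on 1 side, which bleeds into the subarachnoid space, and mice were kept only after a sharp fall in cerebral blood flow at perforation. Sham mice (n = 3) underwent the surgery without the perforation, and Naive mice (n = 3) were not operated on. The operations were done under isoflurane anesthesia, so that surgery and anesthesia cannot be told apart in a comparison of Sham with Naive. The labels name no transgene and list the mice as not treated with a drug. Each library was made from the whole hippocampus of both sides of 1 mouse, and control means Sham and Naive together (n = 6).

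Border-associated macrophages live in the meninges, in the spaces around vessels and in the choroid plexus, outside the brain parenchyma that microglia occupy. They take up proteins, lipids and debris from the cerebrospinal fluid, and scavenger and lectin receptors such as those coded by Mrc1, Stab1 and Lyve1 are part of that work. Both populations share general phagocyte genes such as Csf1r and the complement C1q genes, while Tmem119, P2ry12 and Sall1 are typical of microglia. In whole tissue, more cells of a type and more RNA per cell cannot be told apart.

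The libraries held 19743388 to 27254655 counts. Hippocampal neuron genes were well expressed, as the tissue label has it, and the 7 looked up summed to 636 to 785 CPM (counts scaled to the depth of each library) in every mouse. Choroid plexus genes were uneven: their 12 genes summed to 1296, 906 and 872 CPM in SAH mouse 3, SAH mouse 4 and Sham mouse 7, and to 54.5 to 233 CPM in the other 7 mice. The counts of SAH mouse 3 differed from those of the other SAH mice more than those of any other pair within a group. Many of the results below are therefore given with and without these mice. All 4 hemoglobin genes looked up were listed at 0 in all mice. Alas2, another gene of red blood cells, had 22 to 100 counts in the SAH mice and 31 to 70 in the controls. Why the hemoglobin genes were at 0 was not tested, so they give no measure of blood in the tissue.

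Of the 10 genes, 8 rose in SAH against control and none fell: Lyz2, F13a1, Stab1, Mrc1, Siglec1, Ms4a7, Pf4 and Folr2. A gene was called at an adjusted p under 0.10 in edgeR's quasi-likelihood test over all genes, and by that rule 3.13% of the 14993 genes tested were called higher. The log2 fold changes of the 10 genes ran from 0.73 to 2.02 with a median of 1.30, against a median of -0.0024 over all genes tested. For 7 of the 10 genes the SAH and control mice did not overlap, SAH being higher, a pattern that 2.83% of all genes tested showed. Without SAH mouse 3 the count of genes called was 8, and without SAH mice 3 and 4 and Sham mouse 7 it was also 8, with Cbr2 called in place of Folr2.

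**Figure D1:**
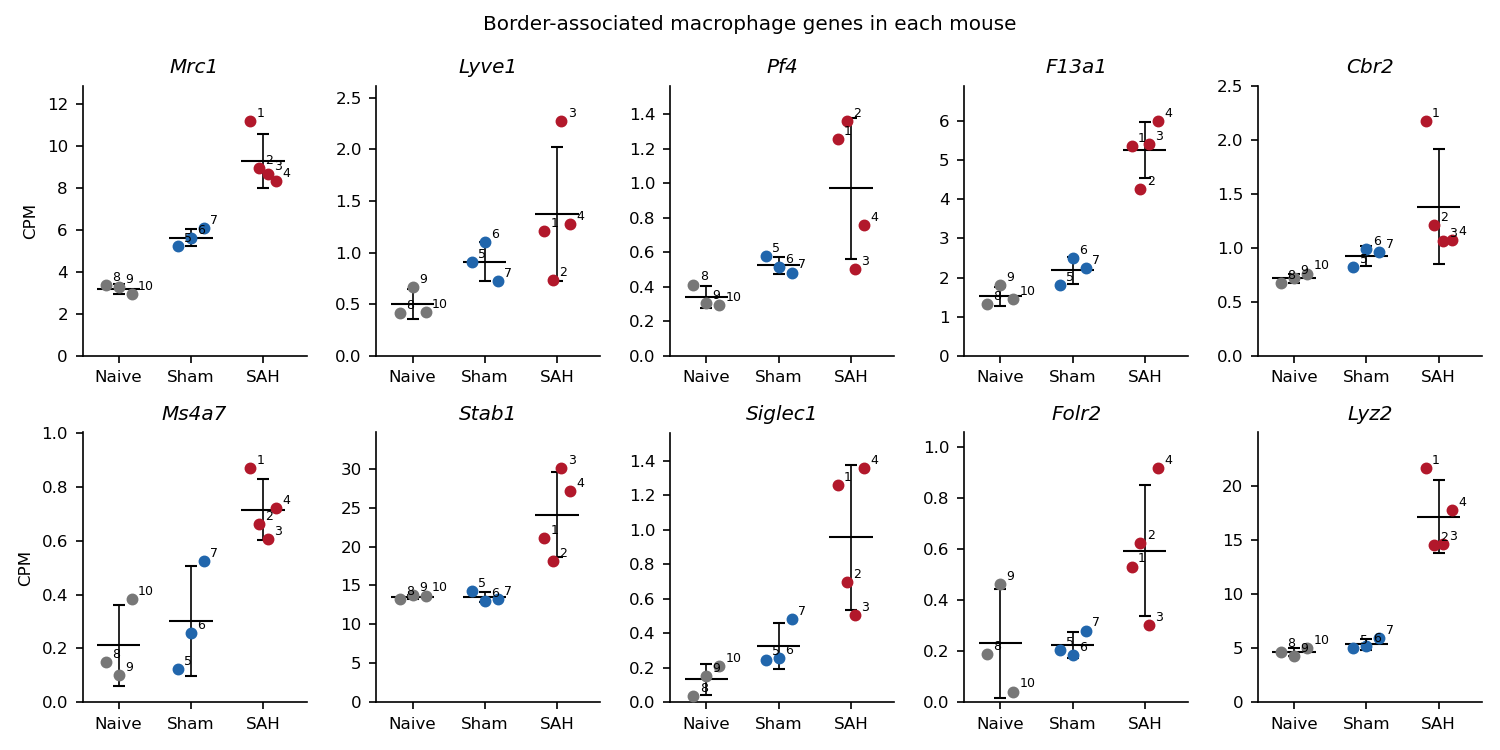
Level of each border-associated macrophage gene in every mouse, in CPM on a linear axis from 0, with the mouse number beside each point; the bar is the group mean and the whiskers 1 SD (Naive n = 3, Sham n = 3, SAH n = 4). The SAH points clear all Sham and Naive points for Mrc1, F13a1, Cbr2, Ms4a7, Stab1, Siglec1 and Lyz2, and overlap them for Lyve1, Pf4 and Folr2.

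Among the receptors, Mrc1 codes for the mannose receptor CD206, which takes up glycoproteins and is the usual marker of these cells (chr2:14151041-14253650 in mm9, plus strand). It stood at 11.2, 8.94, 8.64 and 8.31 CPM in SAH mice 1 to 4, at 5.24, 5.59 and 6.07 CPM in Sham mice 5 to 7 and at 3.38, 3.29 and 2.93 CPM in Naive mice 8 to 10. The 3 groups did not overlap at all, and Sham lay between Naive and SAH. Means were 9.27 ± 1.30 CPM in SAH (SD, n = 4), 5.63 ± 0.42 CPM in Sham (SD, n = 3) and 3.20 ± 0.24 CPM in Naive (SD, n = 3). Against control the log2 fold change was 1.06 ± 0.19 (SE; edgeR adjusted p = 0.00929), a 2.08-fold higher level.

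Stab1 codes for stabilin-1, a large scavenger receptor that clears modified lipoproteins and matrix fragments (chr14:31952203-31981827 in mm9, minus strand). It measured 21.1, 18.1, 30.1 and 27.1 CPM in the SAH mice, 14.2, 13.1 and 13.2 CPM in the Sham mice and 13.3, 13.7 and 13.7 CPM in the Naive mice. The 6 controls were nearly level with each other, and each SAH mouse exceeded them. Against control the log2 fold change was 0.83 ± 0.11 (SE; edgeR adjusted p = 0.00284). Stab1 was highest in SAH mice 3 and 4, the SAH mice with the most choroid plexus RNA, and without them and Sham mouse 7 its log2 fold change was 0.53 (edgeR adjusted p = 0.00217). The part of the choroid plexus RNA in the larger value was not tested.

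Siglec1, or CD169, binds sialic acid on cells and vesicles and is induced by interferon in many macrophages (chr2:130894956-130912501 in mm9, minus strand). Its counts were low, at 26, 19, 10 and 34 in the SAH mice, 6, 7 and 12 in the Sham mice and 1, 3 and 5 in the Naive mice. On the CPM scale these were 1.26, 0.699, 0.505 and 1.36 in SAH, 0.248, 0.257 and 0.483 in Sham and 0.0376, 0.154 and 0.212 in Naive, so that no groups overlapped, though SAH mouse 3 came close to Sham mouse 7. The log2 fold change against control, 2.02 ± 0.42 (SE; edgeR adjusted p = 0.0211), was the largest of the 10 and also had the largest SE.

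Folr2, a folate receptor of tissue-resident macrophages, had 11, 17, 6 and 23 counts in the SAH mice, 5, 5 and 7 in the Sham mice and 5, 9 and 1 in the Naive mice (chr7:108988502-109005704 in mm9, minus strand). In CPM, SAH mouse 3 at 0.303 lay below Naive mouse 9 at 0.463, so SAH and control overlapped, while the other 3 SAH mice lay at 0.532 to 0.919, above every control. The log2 fold change of 1.44 ± 0.42 (SE; edgeR adjusted p = 0.0910) passed narrowly. That call held in only 2 of the 9 fits with 1 mouse left out in which Folr2 was tested. It was lost without SAH mice 2 or 4, without any 1 Sham mouse and without Naive mice 8 or 10, with edgeR adjusted p up to 0.253. Its neighbour Folr1, a choroid plexus gene of the same family, reached 152 counts in SAH mouse 3, the SAH mouse with the fewest Folr2 counts.

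Lyve1, a receptor for hyaluronan shared with lymphatic endothelium, did not pass the test against control (chr7:117994121-118006467 in mm9, minus strand). Its levels were 1.21, 0.736, 2.27 and 1.28 CPM in the SAH mice, 0.908, 1.10 and 0.724 CPM in the Sham mice and 0.414, 0.668 and 0.424 CPM in the Naive mice. The SAH and Sham ranges overlapped, and the high SAH value came from mouse 3. Its log2 fold change was 0.92 ± 0.33 (SE; edgeR adjusted p = 0.176), and it was 0.42 without the 3 mice high in choroid plexus genes. With 1 mouse left out it ran from 0.58 without SAH mouse 3 to 1.14 without SAH mouse 2, where it passed (edgeR adjusted p = 0.0689). Of the lymphatic endothelium markers, 1 of the 2 tested genes was called, Flt4 at a log2 fold change of 1.14 ± 0.32 (SE; edgeR adjusted p = 0.0862), a call lost without any 1 of SAH mice 3 and 4, Sham mice 5, 6 and 7 and Naive mice 8 and 10, and in the robust fit. Ccl21a was listed at 0 and Mmrn1 had 16 counts over all mice.

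Among the secreted proteins and enzymes, Lyz2 codes for the lysozyme of macrophages and other myeloid cells (chr10:116714597-116719328 in mm9, minus strand). It stood at 21.7, 14.5, 14.7 and 17.8 CPM in SAH mice 1 to 4, at 4.99, 5.18 and 5.91 CPM in Sham mice 5 to 7 and at 4.70, 4.27 and 5.01 CPM in Naive mice 8 to 10. The lowest SAH mouse was far above the highest control, while Sham and Naive overlapped. The log2 fold change against control was 1.77 ± 0.12 (SE; edgeR adjusted p = 1.47e-05), a 3.41-fold higher level. The near-identical gene Lyz1, beside it on the chromosome, had 3 counts over all mice, and how many reads the 2 genes share could not be read from the counts.

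F13a1 codes for the catalytic subunit of coagulation factor XIII, which cross-links fibrin and is made by resident macrophages (chr13:36959047-37142113 in mm9, minus strand). It measured 5.37, 4.27, 5.41 and 6.00 CPM in the SAH mice, 1.82, 2.50 and 2.25 CPM in the Sham mice and 1.32, 1.80 and 1.44 CPM in the Naive mice. All SAH values were well clear of the controls, and the Sham values lay just above the Naive ones. Its log2 fold change against control was 1.49 ± 0.17 (SE; edgeR adjusted p = 0.000860).

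Pf4 codes for platelet factor 4, a chemokine stored in platelets that resident macrophages of the brain borders also make (chr5:91201461-91202409 in mm9, plus strand). It had 26, 37, 10 and 19 counts in the SAH mice, 14, 14 and 12 in the Sham mice and 11, 6 and 7 in the Naive mice. In CPM, SAH mouse 3 at 0.505 lay inside the Sham range of 0.483 to 0.578, and the other 3 SAH mice, at 0.759 to 1.36, lay above every control. Against control Pf4 had a log2 fold change of 1.16 ± 0.30 (SE; edgeR adjusted p = 0.0596), and it was 1.61 without the 3 mice high in choroid plexus genes (edgeR adjusted p = 0.0100). The call was lost in fits that left out SAH mouse 1, SAH mouse 2 or 1 of Naive mice 8, 9 and 10, with edgeR adjusted p up to 0.132. The platelet genes tested moved little: of the 8 listed, 4 were tested, none was called in either direction, their median log2 fold change was -0.22, and Gp1bb and Gp5 were at -0.11 and -0.34. Ppbp, Gp1ba, Gp6 and Treml1 had 12, 3, 2 and 13 counts over all mice, too few to be tested. The part of platelets in the Pf4 value was not tested.

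Cbr2, a carbonyl reductase abundant in tissue-resident macrophages, measured 2.18, 1.21, 1.06 and 1.08 CPM in the SAH mice, 0.825, 0.993 and 0.965 CPM in the Sham mice and 0.677, 0.720 and 0.764 CPM in the Naive mice (chr11:120590799-120593335 in mm9, minus strand). The SAH mice lay above all controls, but 3 of them only just. The log2 fold change of 0.73 ± 0.24 (SE; edgeR adjusted p = 0.131) did not pass, and without SAH mouse 1 the value was 0.44. Without the 3 mice high in choroid plexus genes it was 1.05 and passed (edgeR adjusted p = 0.0902).

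Ms4a7, a membrane protein of the MS4A family that marks border and infiltrating macrophages but not resting microglia, had 18, 18, 12 and 18 counts in the SAH mice (chr19:11395529-11410636 in mm9, minus strand). In the Sham mice it had 3, 7 and 13 counts and in the Naive mice 4, 2 and 9. Every SAH mouse, at 0.606 to 0.870 CPM, was above every control, although Sham mouse 7 reached 0.523 CPM. Ms4a7 had a log2 fold change of 1.44 ± 0.36 (SE; edgeR adjusted p = 0.0543). That call was lost without SAH mouse 4, Sham mouse 5, Naive mouse 8 or Naive mouse 9, with edgeR adjusted p up to 0.139. Without the 3 mice high in choroid plexus genes the log2 fold change was 1.85 (edgeR adjusted p = 0.0433).

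Set against Sham alone, 4 of the 10 genes rose: Lyz2, F13a1, Stab1 and Mrc1, where 0.529% of the 15134 genes tested were called higher. The log2 fold changes were 1.68 ± 0.15 for Lyz2 (SE; edgeR adjusted p = 0.000923), 1.26 ± 0.17 for F13a1 (SE; edgeR adjusted p = 0.0127), 0.83 ± 0.14 for Stab1 (SE; edgeR adjusted p = 0.0471) and 0.71 ± 0.12 for Mrc1 (SE; edgeR adjusted p = 0.0471). The other 6 genes had values of 0.56 to 1.53 and edgeR adjusted p of 0.222 to 0.641. All SAH mice lay above all Sham mice for 8 of the 10 genes, the exceptions being Lyve1 and Pf4, where 5.03% of all genes tested showed that pattern. Only the calls of Lyz2 and F13a1 held when any 1 mouse was left out. Mrc1 and Stab1 were lost without any 1 of Sham mice 5, 6 and 7, and Stab1 also without SAH mouse 4. Among the genes not called, Lyve1 ran from 0.22 (without SAH mouse 3) to 0.78 with 1 mouse left out, and Cbr2 was at 0.27 without SAH mouse 1. Without the 3 mice high in choroid plexus genes the calls were those of Mrc1, F13a1, Stab1 and Lyz2, with Stab1 at 0.52 (edgeR adjusted p = 0.0289), and Lyve1 was at -0.085.

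Set against Naive, 7 of the 10 genes rose, with 2.03% of all genes tested called higher. Siglec1 was at 2.83 ± 0.54 (SE; edgeR adjusted p = 0.0222), Lyz2 at 1.88 ± 0.15 (SE; edgeR adjusted p = 0.000125), F13a1 at 1.80 ± 0.19 (SE; edgeR adjusted p = 0.000580) and Mrc1 at 1.53 ± 0.13 (SE; edgeR adjusted p = 0.000231) on the log2 fold change scale. Pf4 at 1.50 (edgeR adjusted p = 0.0711), Lyve1 at 1.44 (edgeR adjusted p = 0.0953) and Stab1 at 0.82 (edgeR adjusted p = 0.0146) were the other calls. Ms4a7, Folr2 and Cbr2 had log2 fold changes of 1.70, 1.46 and 0.93 and did not pass. The groups did not overlap for 9 of the 10 genes, all but Folr2, against 7.04% of all genes tested. The Lyve1 call held in 1 and the Pf4 call in 2 of the 10 fits with 1 mouse left out, with edgeR adjusted p up to 0.349 and 0.255, and the Siglec1 call was lost without Naive mouse 8 (edgeR adjusted p = 0.143). Without the 3 mice high in choroid plexus genes the count was also 7, but Lyve1 at 0.95 was lost (edgeR adjusted p = 0.343), Cbr2 at 1.20 was gained (edgeR adjusted p = 0.0847), and Stab1 was at 0.53 (edgeR adjusted p = 0.00594). These comparisons and the one with all controls share the SAH mice and are not independent of each other.

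**Figure D2:**
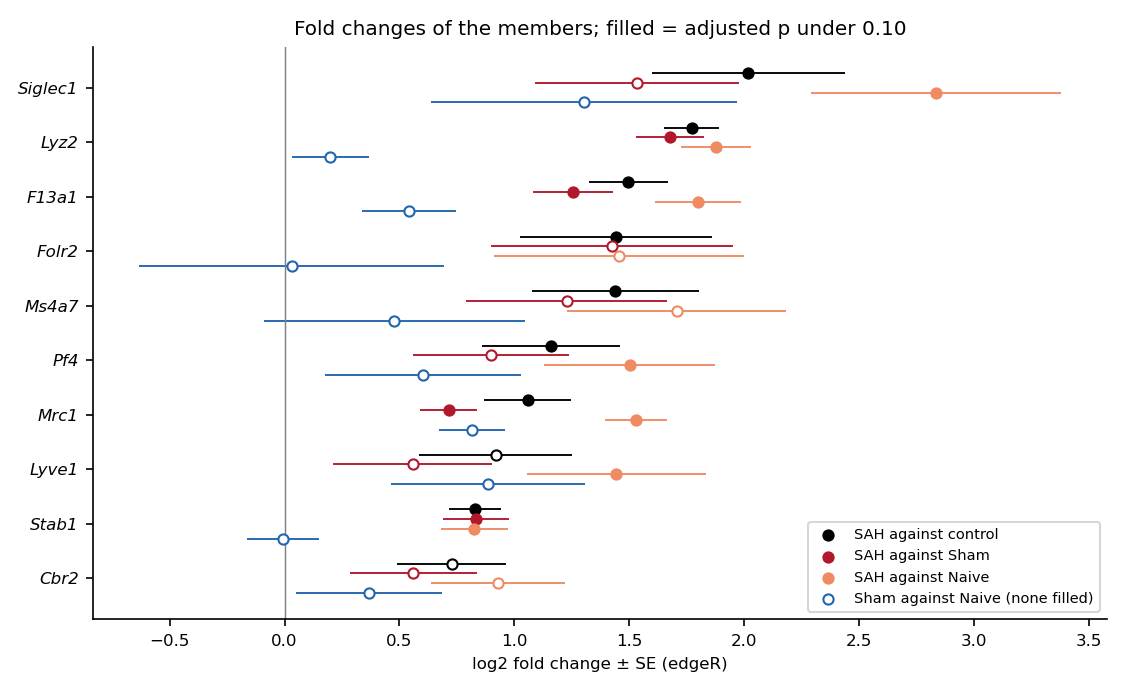
Log2 fold change of each gene with its SE from edgeR, for SAH against control (n = 4 and 6), SAH against Sham (n = 4 and 3), SAH against Naive (n = 4 and 3) and Sham against Naive (n = 3 and 3). Filled points passed an adjusted p under 0.10, as 8, 4, 7 and 0 of the 10 genes did, and the Sham against Naive points of Siglec1 (1.30), Lyve1 (0.89) and Mrc1 (0.81) lie farthest from 0 with all 10 mice while those of Stab1 and Folr2 (0.03) lie at it.

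The comparison of Sham with Naive asked whether these genes moved with the operation, anesthesia included, without the perforation. None of the 10 was called by edgeR, and 2 of them, Mrc1 and F13a1, had an unadjusted p under 0.05. Only 1 gene of all those tested was called higher, the sulfate transporter gene Slc13a4, or 0.00661%. Mrc1 came next in order of p, with a log2 fold change of 0.81 ± 0.14 (SE; edgeR adjusted p = 0.705), a 1.76-fold higher level in Sham. DESeq2 called Mrc1 as well as Slc13a4 (DESeq2 adjusted p = 0.0376 for Mrc1), and those 2 genes were 0.0132% of the genes it tested. Every Sham mouse was above every Naive mouse for 6 of the 10 genes, Mrc1, Lyve1, Pf4, F13a1, Cbr2 and Siglec1, where 4.84% of all genes tested showed that order. For Lyz2, Stab1, Ms4a7 and Folr2 the 2 control groups overlapped, and the Stab1 log2 fold change was -0.0068 ± 0.16 (SE). Siglec1, at 1.30 ± 0.66 (SE), ran from 0.80 (without Naive mouse 8) to 1.84 (without Naive mouse 10) with 1 mouse left out, and was at 0.94 without the 3 mice high in choroid plexus genes. Of the meningeal fibroblast genes none was called between Sham and Naive, and their median log2 fold change there was 0.39.

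Per kilobase of transcript, Lyz2 was the most abundant of the 10 in every group, at 16.3 ± 3.20 RPKM (CPM divided by exon length in kilobases) in SAH (SD, n = 4) and 4.74 ± 0.52 RPKM in control (SD, n = 6). Stab1 followed at 3.01 ± 0.68 RPKM in SAH and 1.69 ± 0.055 RPKM in control. In SAH, Mrc1 at 1.74, Pf4 at 1.65, Cbr2 at 1.35 and F13a1 at 1.34 RPKM formed a middle group whose neighbours overlapped from mouse to mouse. Lyve1 at 0.527, Folr2 at 0.447 and Ms4a7 at 0.416 RPKM were lower and likewise overlapped, and Siglec1 was the lowest at 0.150 RPKM. In Naive mice Cbr2 at 0.705 RPKM stood above Mrc1 at 0.602 RPKM with no overlap, and in Sham mice Mrc1 at 1.06 RPKM stood above Cbr2 at 0.909 RPKM, again with no overlap. Summed over the 10 genes, the level was 51.1 to 66.7 CPM in SAH, 29.2 to 30.9 CPM in Sham and 24.6 to 25.5 CPM in Naive. Stab1 made up 39.0% of the SAH sum and 49.2% of the control sum, and Lyz2 27.8% and 18.2%.

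The 4 SAH mice did not share 1 order over the genes. SAH mouse 1 was the highest SAH mouse for Mrc1, Cbr2, Ms4a7 and Lyz2, SAH mouse 4 for F13a1, Siglec1 and Folr2, SAH mouse 3 for Lyve1 and Stab1, and SAH mouse 2 for Pf4. SAH mouse 3 was the lowest SAH mouse for 5 genes, Pf4, Cbr2, Ms4a7, Siglec1 and Folr2. Correlated over the 10 mice with the mean log2 CPM of the other 9, F13a1 (r = 0.98), Lyz2 (r = 0.96) and Mrc1 (r = 0.95) followed it most closely and Lyve1 (r = 0.67) and Folr2 (r = 0.68) least. These values are a description: the 10 mice fall into groups that differ, and once each group's mean was removed r ran from -0.32 for Lyve1 to 0.71 for Lyz2.

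Outside the 10, the genes whose log2 CPM most resembled their mean over the 10 mice included Crip1, Nupr1 and Serping1 (each r = 0.98), Dab2, Lepr, Mgp, Itih2 and Islr (each r = 0.97) and Fbln5 (r = 0.96). Serping1 codes for an inhibitor of complement, and Mgp and Fbln5 for proteins of the extracellular matrix. After removal of group means the closest were Rph3a, Fblim1, 9630028B13Rik, Ptgis, Snx2, Arhgef12, 1110004E09Rik, Samd5, Efcab14 and Zfp935 (r = 0.91 to 0.98), of which only Ptgis was called in SAH against control (log2 fold change 1.26; edgeR adjusted p = 0.0304). With 10 mice and 14993 genes, values of this size are a ranking and not a test.

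Other genes of border macrophages were thinner in these libraries: of 24 listed, 10 were tested and 7 rose, with a median log2 fold change of 0.84. Among them were the endocytic adaptor Dab2 at 0.75 ± 0.10 (SE; edgeR adjusted p = 0.00235), the scavenger receptor Colec12 at 1.00 ± 0.15 (SE; edgeR adjusted p = 0.00443), the hemoglobin-haptoglobin receptor Cd163 at 1.51 ± 0.24 (SE; edgeR adjusted p = 0.00561) and Ms4a6d at 0.92 ± 0.22 (SE; edgeR adjusted p = 0.0469). The transcription factor gene Maf was at 0.16 on that scale and did not pass. The count was 3 without SAH mouse 3, 3 without SAH mouse 4 and 3 without the 3 mice high in choroid plexus genes. The 14 genes not tested in that fit included Retnla, listed at 0, and Clec10a, with 92 counts over all mice. In the fit of 3 groups 11 genes of the list were tested, of which 3 rose against Sham and 4 against Naive.

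Microglia genes differed little between the groups: 1 of 11 rose in edgeR's test, and the median log2 fold change of the list was 0.03. Their summed level was 320 to 434 CPM in SAH and 341 to 379 CPM in control, overlapping ranges, whereas the summed level of the border-associated macrophage genes did not overlap. Stab1 and Lyz2 made up 39.0% and 27.8% of the latter sum in SAH. The paper lists Lyz2, Stab1 and Siglec1 among its microglia signature genes, and the part of microglia in their values was not tested. Tmem119 was at 0.08, P2ry12 at -0.05 and Sall1 at -0.09 on the log2 fold change scale. The count of microglia genes called was 3 without SAH mouse 3, 0 without SAH mouse 4, 0 without Naive mouse 8 and 2 without the 3 mice high in choroid plexus genes. Genes that all mononuclear phagocytes share lay between, with 8 of 13 higher and a median of 0.33: C1qb was at 0.48, Adgre1 at 0.66, C1qc at 0.48 and C1qa at 0.52, with edgeR adjusted p of 0.00961 to 0.0117. That count was 4 without SAH mouse 4, 5 without Sham mouse 6, Naive mouse 8 or Naive mouse 9, 3 without the 3 mice high in choroid plexus genes and 5 at an adjusted p under 0.05. Set against Sham alone none of the 13 was called by edgeR, and against Naive 5 were. The receptor gene Csf1r, on which these cells depend, rose by 0.29 ± 0.06 (SE; edgeR adjusted p = 0.0260), while its ligand genes Csf1 and Il34 were at 0.13 and 0.04 and did not pass. The Csf1r call was lost without SAH mouse 4 and without the 3 mice high in choroid plexus genes.

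Markers of blood leukocytes were at low levels. No monocyte gene of 7 passed the filter on low counts in the fit of SAH against control, and their summed level was 0.707 to 2.03 CPM in SAH and 0.301 to 0.603 CPM in control, with no overlap. Before scaling to depth the sums did overlap: SAH mouse 3 had 14 counts, Naive mouse 10 had 14, and Sham mice 6 and 7 had 15 each. Ccr2, the chemokine receptor of inflammatory monocytes, had 32, 24, 2 and 17 counts in the SAH mice, 3, 6 and 3 in the Sham mice and 4, 1 and 4 in the Naive mice, so that SAH mouse 3 alone among the SAH mice fell into the control range. In the fit of 3 groups, where Ccr2 passed the filter, it was at 2.32 against Sham and 2.60 against Naive, neither called, and at 2.46 ± 0.55 (SE; edgeR adjusted p = 0.0385) against Sham and Naive averaged. It was also tested, at a log2 fold change of 2.78 ± 0.37 (SE; edgeR adjusted p = 0.000857), without SAH mouse 3, and at 2.96 ± 0.40 (SE; edgeR adjusted p = 0.00117) without the 3 mice high in choroid plexus genes. With no filter on low counts, Ccr2 rose at a log2 fold change of 2.45 ± 0.51 (SE; edgeR adjusted p = 0.0177) and Ly6c2, another monocyte gene with 16 counts over all mice, at 2.49 ± 0.67 (SE; edgeR adjusted p = 0.0672). The part of monocytes in the values of Lyz2 and Ms4a7, which such cells also express, was not tested. Of 10 neutrophil genes in the tables only Mmp9 passed the filter, at a log2 fold change of 0.0026, and S100a9 had 64 counts over all mice. Of 7 dendritic cell genes 3 were tested and none was called, Flt3 being at -0.01, Zbtb46 at 0.06 and Itgax at 0.80 ± 0.44 (SE; edgeR adjusted p = 0.381).

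MHC class II genes, which only some border macrophages carry, rose in 5 of 6 tested: H2-Aa at 2.09, Cd74 at 1.71, H2-Ab1 at 2.03, H2-Eb1 at 1.52 and H2-DMb1 at 1.06, with edgeR adjusted p of 0.00375 to 0.0481. The count was 1 when at least 10 counts in every mouse were required. That filter removed H2-Aa, H2-Ab1, H2-Eb1 and H2-DMb1, whose lowest counts in a control mouse were 8, 5, 5 and 6. Without the 3 mice high in choroid plexus genes the count was 4. Interferon-induced genes rose in 8 of 9, with a median of 1.35, and Bst2 at 1.56, Irf7 at 2.10, Ifit3 at 1.35 and Ifit1 at 1.41 were the 4 with the smallest p (edgeR adjusted p of 0.000758 to 0.00284). Set against Sham alone, 2 of the MHC class II genes and 4 of the interferon-induced genes rose, and against Naive 5 and 7.

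**Figure D3:**
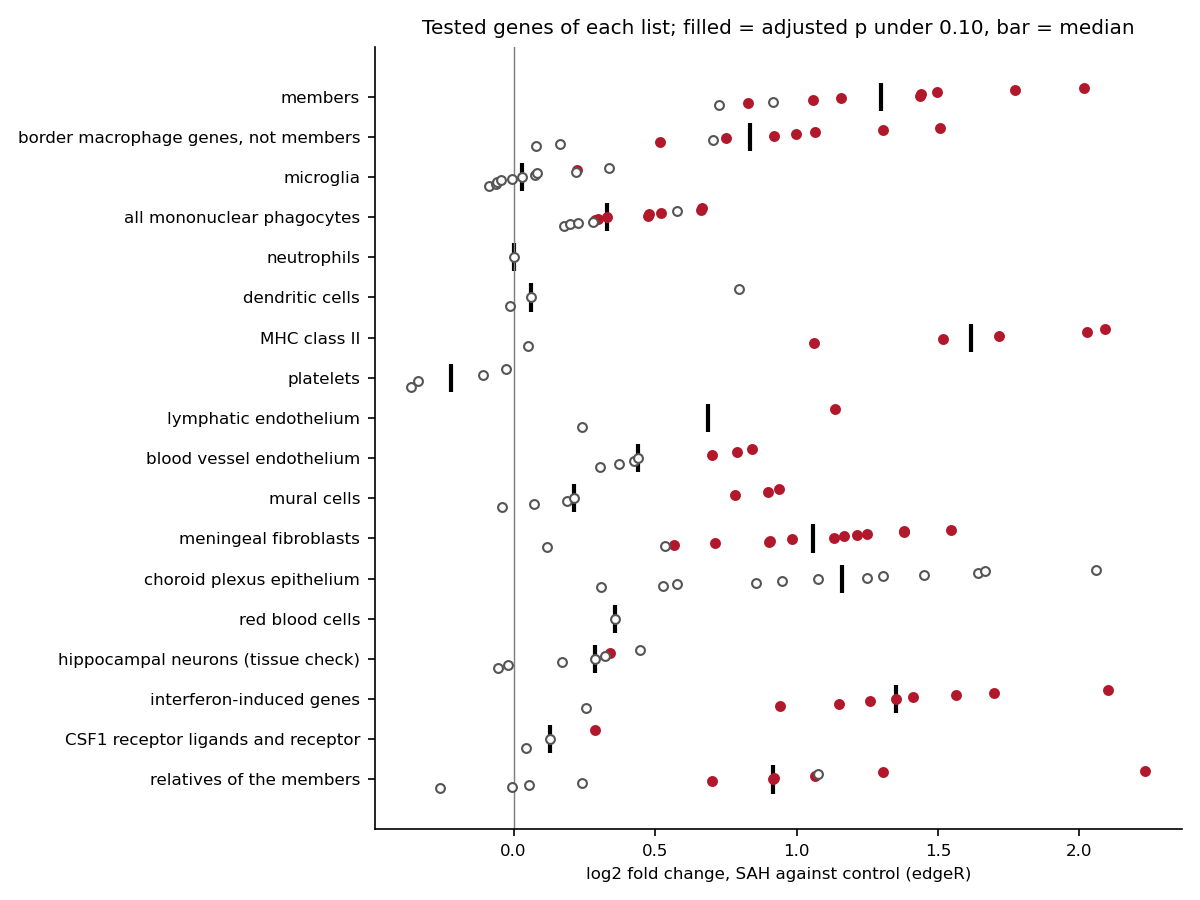
Log2 fold change in SAH (n = 4) against control (n = 6) of each tested gene in each list, with filled points past an edgeR adjusted p under 0.10 and a bar at the list's median. The medians of the border-associated macrophage genes (1.30), MHC class II (1.62), interferon-induced genes (1.35), choroid plexus epithelium (1.16) and meningeal fibroblasts (1.06) lie well to the right and that of microglia (0.03) at 0, and no choroid plexus gene is filled.

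The tissue around these macrophages moved as well. Of 14 meningeal fibroblast genes 12 rose against control, 4 against Sham alone and 12 against Naive, with a median log2 fold change against control of 1.06, and examples were Foxc1 at 0.71, Col1a2 at 1.21, Igf2 at 1.25 and Lum at 1.13 (edgeR adjusted p of 0.00443 to 0.00596). Their summed level was 221 to 421 CPM in SAH, 200 to 211 CPM in Sham and 160 to 169 CPM in Naive, the same order of groups as for the border-associated macrophage genes. Within SAH, mouse 1 had the highest sum of both, at 421 CPM of the fibroblast genes and 66.7 CPM of the macrophage genes. The order of the other SAH mice differed. SAH mouse 2 had 388 CPM of the fibroblast genes and the lowest sum of the macrophage genes. SAH mouse 3 had the lowest fibroblast sum and 64.1 CPM of the macrophage genes, and SAH mouse 4 had 300 and 65.3 CPM. Mural cell genes rose in 3 of 7, Tagln at 0.94, Acta2 at 0.78 and Myh11 at 0.90, and endothelial genes in 3 of 7, Cdh5 at 0.84, Pecam1 at 0.70 and Flt1 at 0.79. Set against Sham alone the counts were 1 and 1, and against Naive 3 for mural cells and 1 for endothelium. The endothelial count was 6 without SAH mouse 1 and 1 without SAH mouse 4. Without the 3 mice high in choroid plexus genes the counts against control were 2 for mural cells and 2 for endothelium. No choroid plexus gene of 12 was called, the list's median was 1.16, and Ttr and Kl stood at 1.64 ± 0.99 and 0.58 ± 0.26 (SE), but without Sham mouse 7 the count was 9, and 2 were called against Naive. How much attached meninges or vessels contributed to the higher macrophage genes was not tested. Without the 3 mice high in choroid plexus genes, the calls numbered 12 among the fibroblast genes and 8 among the border-associated macrophage genes, the same counts as with them, though Folr2 was lost (edgeR adjusted p = 0.232) and Cbr2 gained.

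**Figure D4:**
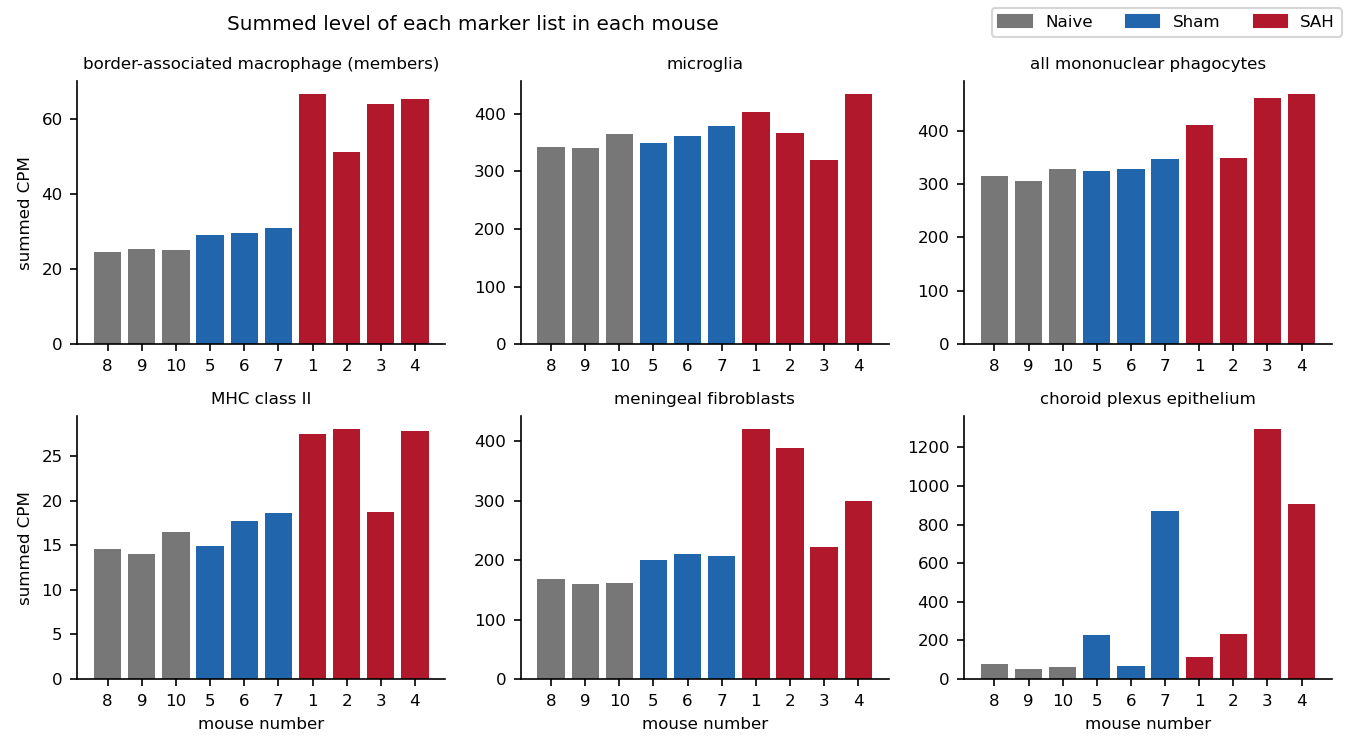
Summed CPM of 6 gene lists in each mouse on linear axes from 0, Naive in grey, Sham in blue and SAH in red. The border-associated macrophage genes step up from 24.6 to 30.9 CPM in controls to 51.1 to 66.7 CPM in SAH, the microglia genes overlap between groups, and the choroid plexus genes are high in mice 3, 4 and 7.

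Among relatives of the 10 genes, 11 of 16 were tested and 6 rose against control, while none was called against Sham alone and 1 against Naive. The related mannose receptor family gene Mrc2, active in fibroblasts, was at 0.92 ± 0.20 (SE; edgeR adjusted p = 0.0306), and the Siglec family genes Cd22 and Cd33 were at 2.23 ± 0.49 (SE; edgeR adjusted p = 0.0276) and 0.70 ± 0.16 (SE; edgeR adjusted p = 0.0306). Stab2, the paralog of Stab1, was at -0.26 and Cbr1 and Cbr3, relatives of Cbr2, at -0.01 and 0.06, none of them called. The other 3 calls, Ms4a6b, Ms4a6c and Ms4a6d, are also among the 7 calls of the further border macrophage genes. The count was 3 without SAH mouse 3, 1 without SAH mouse 4, 1 without the 3 mice high in choroid plexus genes and 3 when at least 10 counts in every mouse were required. Nt5dc2 overlaps Stab1 on the opposite strand, and reads were counted by strand. Mir511 overlaps Mrc1 on the same strand, which counting by strand does not separate.

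The promoters of the 10 genes were compared for motifs of macrophage factors. RefSeq windows of 300 bases, 250 before to 50 after a start in GRCm38.p6, were at hand for 8 of the 10 genes in 11 windows, and not for Lyve1 and Siglec1. The myeloid factor PU.1 binds a core GAGGAAG, the MAF factors of resident macrophages a core TGCTGA, and interferon-regulated genes often carry GAAANNGAAA. On either strand, the PU.1 core was found in 5 of the 11 windows, of Mrc1, F13a1, Cbr2 and Pf4, where 13.6% of the 32851 windows in the table hold it. The MAF core was found in 5 windows, of Lyz2, Stab1, Folr2 and Cbr2, against 19.5% of all windows, and the interferon motif in none, against 3.44%. No 2 of these matches overlapped in the windows. The letters mark no measured binding. The 250 bases before the start are shown for Mrc1 and for 1 of the starts of F13a1, as genes with the PU.1 core, and for Lyz2 and Stab1, as genes with the MAF core, 5′ to 3′ on the gene's strand with matches in capitals.
Mrc1 (chr2:14229164-14229413 in GRCm38.p6, plus strand): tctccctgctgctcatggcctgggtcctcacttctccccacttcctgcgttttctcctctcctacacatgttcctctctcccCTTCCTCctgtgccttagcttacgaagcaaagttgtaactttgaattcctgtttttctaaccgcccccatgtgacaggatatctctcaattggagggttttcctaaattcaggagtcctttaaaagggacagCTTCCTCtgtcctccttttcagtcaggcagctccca
F13a1 (chr13:37050245-37050494 in GRCm38.p6, minus strand): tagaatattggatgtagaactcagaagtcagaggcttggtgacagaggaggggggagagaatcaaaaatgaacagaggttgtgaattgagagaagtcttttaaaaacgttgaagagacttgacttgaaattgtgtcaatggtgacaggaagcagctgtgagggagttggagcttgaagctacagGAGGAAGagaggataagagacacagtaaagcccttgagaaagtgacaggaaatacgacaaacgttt
Lyz2 (chr10:117282273-117282522 in GRCm38.p6, minus strand): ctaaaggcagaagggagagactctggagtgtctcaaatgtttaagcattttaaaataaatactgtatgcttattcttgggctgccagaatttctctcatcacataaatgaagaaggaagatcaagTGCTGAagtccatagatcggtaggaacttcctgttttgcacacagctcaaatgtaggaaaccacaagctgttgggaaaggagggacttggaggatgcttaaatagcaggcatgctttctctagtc
Stab1 (chr14:31168642-31168891 in GRCm38.p6, minus strand): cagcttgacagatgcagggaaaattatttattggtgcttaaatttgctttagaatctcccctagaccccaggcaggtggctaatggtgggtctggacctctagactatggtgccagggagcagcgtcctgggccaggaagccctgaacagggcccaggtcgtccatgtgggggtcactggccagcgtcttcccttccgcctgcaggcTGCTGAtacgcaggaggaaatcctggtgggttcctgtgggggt
In Mrc1 the matches, read on the opposite strand, began 168 and 36 bases before the start, and in F13a1 the match shown began 66 bases before it, with a further match after the start. In Lyz2 and Stab1 the MAF core began 125 and 43 bases before the start. The 4 genes shown were called in each comparison of SAH with controls, whichever motif their window held. Other genes with a core were not: with all 10 mice Cbr2, which held both, was called in none. Pf4 and Folr2 were not called against Sham (edgeR adjusted p = 0.401 and 0.385).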

How the data were processed

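Total RNA of each mouse was depleted of ribosomal RNA and sequenced as stranded paired-end reads. The authors aligned the reads with STAR and deposited 1 table of counts per gene for each mouse, made with featureCounts 1.6.2 by strand on an mm9 annotation, per the file headers. These raw counts were tested with edgeR 4.0.16 (R 4.3.3): TMM scaling, a filter on low counts (filterByExpr, minimum 10), its quasi-likelihood test, and p-values adjusted by Benjamini-Hochberg over all genes tested, with a threshold of 0.10. SAH against control was fitted on 2 groups, and the pairwise comparisons on 3 groups of all 10 mice. SE is the log2 fold change over the root of its F value. CPM are TMM-scaled, RPKM divide CPM by the tables' exon length, and correlations used log2 CPM with a prior count of 2. DESeq2 1.42.0, other scalings and filters, a threshold of 0.05 and leaving out each mouse were alternatives, and leaving out 3 mice high in choroid plexus genes was added after the data were seen. The script was tested on simulated data. The 10 genes and the lists were chosen with earlier results of these data known. The text names all 10, up to 4 called genes of a list by smallest p or otherwise the 2 most abundant, the relatives, and the 10 genes most alike by each measure; other genes with values, Tmem119, P2ry12, Sall1, Maf, Ly6c2 and Slc13a4 among them, were named after their values were seen. A few genes that this rule covers are not reported here, but stay in the counts and medians of their lists. Each mouse is 1 sample, all from 1 batch of animals.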

Additional observations from a re-analysis of the deposited data

Results flagged for a closer look

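In 32 groups of values (each of the 10 genes and the summed levels of 6 lists, in SAH and in control), 4 had 1 mouse set apart by Dixon's test, and chance alone sets apart about 1 in 20. Cbr2 in SAH mouse 1 was 2.18 CPM, with the next SAH mouse at 1.21 CPM, a gap of 0.863 of the range of the 4 mice. The summed border-associated macrophage genes in SAH mouse 2 were 51.1 CPM, with the next SAH mouse at 64.1 CPM, a gap of 0.832 of the range. The summed MHC class II genes in SAH mouse 3 were 18.7 CPM, with the next SAH mouse at 27.4 CPM, a gap of 0.934 of the range. The summed choroid plexus genes in Sham mouse 7 were 872 CPM, with the next control at 228 CPM, a gap of 0.788 of the range of the 6 controls.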

How the results depend on the processing

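Of the 10 border-associated macrophage genes, 8 were called higher in SAH against control, and the count was 8 with DESeq2, both other scalings, no filter and the robust fit. It was 4 of 6 tested when at least 10 counts in every mouse were required, 5 at an adjusted p under 0.05, 7 with Sham and Naive averaged in the fit of 3 groups, and 5 to 8 when 1 mouse was left out. The calls of Mrc1, F13a1, Stab1, Siglec1 and Lyz2 held in all 10 such fits. For SAH against Sham the count of 4 was 2 in a fit of those mice alone and 2 to 5 with 1 mouse left out, 2 without Sham mouse 5, 6 or 7. For SAH against Naive the count of 7 ranged from 4 (without Naive mouse 8) to 6 with 1 mouse left out, and it was 8 with DESeq2, which added Ms4a7, 5 in a fit of those mice alone, which lost Lyve1 and Pf4, and 5 at an adjusted p under 0.05. For Sham against Naive the count of 0 was 1 with DESeq2, and it was 0 with each mouse left out. The causes were not tested, other than that fewer genes or mice entered some fits. Log2 fold changes changed sign only where the value was not called. For Sham against Naive, Stab1 was 0.0032 with library size alone and 0.0082 without the 3 mice high in choroid plexus genes, Folr2 was -0.00017 with DESeq2 and -0.15 without those mice, and Ms4a7 was -0.14 without them. With 1 mouse left out these ranged from -0.045 to 0.018, from -0.46 to 0.88 and from -0.15 to 1.18. For SAH against Sham, Lyve1 was -0.085 without the 3 mice high in choroid plexus genes. No paired analysis was possible because the groups share no replicate numbers. Counts of 1 to 45 per mouse limit Lyve1, Pf4, Cbr2, Ms4a7, Siglec1 and Folr2, and intervals from counting cover counting error only.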
